A study of Mus musculus with 6 samples.

Results

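The genes described here encode the parts of transforming growth factor beta (TGF-beta) signalling outside and at the surface of the cell. They are the ligands Tgfb1, Tgfb2 and Tgfb3, the receptors Tgfbr1, Tgfbr2 and Tgfbr3, the latent TGF-beta binding proteins Ltbp1, Ltbp2 and Ltbp3, and the matrix protein gene Tgfbi. They were taken by symbol from the count table. All 10 were among its 44788 genes, and all 10 passed the filter on low counts, as did 15362 genes in all. TGF-beta is secreted in a latent form, bound to its own propeptide, and a latent TGF-beta binding protein can tie that complex to the matrix. Once released, the ligand binds the type II receptor (Tgfbr2), which recruits and phosphorylates the type I receptor (Tgfbr1), and SMAD2 and SMAD3 carry the signal to the nucleus. In cartilage the pathway is known for supporting matrix synthesis and for restraining hypertrophy.

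The samples were chondrocytes, the cells that build cartilage, from the femoral epiphysis of C57BL/6 mice at postnatal day 1, kept in DMEM/F12 to which 10% FBS was added. The series design also calls them P2, without saying what that means. The 3 groups had 2 libraries each: control cells with 0.1% DMSO for 48 h, cells with 10 ng/ml TGF-alpha for 48 h, and cells given 10 µM gefitinib for 30 min and then TGF-alpha with gefitinib for 48 h. All groups held 0.1% DMSO, although the design names PBS for the control. TGF-alpha activates EGFR, the receptor for epidermal growth factor, and despite its name does not belong to the TGF-beta family. Gefitinib inhibits the EGFR kinase. A group with gefitinib alone was not analysed here, so an effect of the inhibitor without the ligand cannot be told apart from its effect on the ligand's action.

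Total counts ranged from 12317407 to 16096263 per library. The labels do not say whether replicates were separate cultures or animals, so the p-values refer to the spread among these libraries alone, and that spread may be purely technical. The chondrocyte label was checked against 10 markers, whose summed level was 69844 and 65233 CPM (counts scaled to library size) in control. That sum was 34672 and 33607 CPM with TGF-alpha and 60260 and 57811 CPM with TGF-alpha plus gefitinib, and all 10 markers fell with TGF-alpha. Of 9 macrophage markers, Ptprc, C1qa, C1qb and Tyrobp had no count in any library, and the list summed to 5.46 and 5.54 CPM in control, 12.0 and 15.6 with TGF-alpha and 6.51 and 8.96 with gefitinib added. Endothelial markers summed to 0.234 and 0.382 CPM in control, 2.16 and 1.53 with TGF-alpha and 0.685 and 0.480 with gefitinib added. Cdh5 and Emcn were at 0 in every library. Flt1, the 1 endothelial marker tested, had 1 and 2 counts in control, 21 and 19 with TGF-alpha and 1 and 0 with gefitinib added. It passed the filter on low counts only through its counts in the TGF-alpha group, so no p-value is given for it. Summed fibroblast markers lay between 3290 and 3481 CPM in control, 2315 and 2358 with TGF-alpha, and 2813 and 2954 with gefitinib added. Col5a1 made up most of that sum, with 2820 ± 149 CPM in control cells against 1492 ± 53.6 CPM under TGF-alpha (mean ± SD, n = 2). Gene by gene, 4 of 7 tested fibroblast markers rose with TGF-alpha and 2 fell, with a median log2 fold change of 0.36. Osteoblast markers lay between 178 and 181, between 84.2 and 90.6, and between 117 and 119 CPM, and smooth muscle markers between 31.0 and 33.4, between 22.4 and 23.1, and between 27.1 and 29.3 CPM in the same order. Among 5 tested smooth muscle markers 1 fell with TGF-alpha, Cnn1 from 15.9 ± 0.154 to 3.62 ± 0.226 CPM, and 4 did not pass, with a median log2 fold change of 0.33. The part of these shifts in the results below was not tested.

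The promoter sequences of 4 genes are shown because these genes carry the main patterns: a ligand gene that rose with TGF-alpha (Tgfb1), a ligand gene that fell (Tgfb2), a binding protein gene that rose (Ltbp1) and a receptor gene that was lower in both treated groups (Tgfbr2). Each is the 250 bases before the first annotated start in the RefSeq table (GRCm38.p6), 5′ to 3′ on the gene's strand. The table held 8 of the 10 genes, without Tgfb3 and Tgfbr3. Capitals mark matches on either strand to the motifs named after the sequences.
Tgfb1 (chr7:25686752-25687001, plus strand): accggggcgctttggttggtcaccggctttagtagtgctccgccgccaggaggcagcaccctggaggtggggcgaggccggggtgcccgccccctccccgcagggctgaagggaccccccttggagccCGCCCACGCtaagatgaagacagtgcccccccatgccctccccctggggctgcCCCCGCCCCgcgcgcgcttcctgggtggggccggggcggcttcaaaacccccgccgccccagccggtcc
Tgfb2 (chr1:186705990-186706239, minus strand): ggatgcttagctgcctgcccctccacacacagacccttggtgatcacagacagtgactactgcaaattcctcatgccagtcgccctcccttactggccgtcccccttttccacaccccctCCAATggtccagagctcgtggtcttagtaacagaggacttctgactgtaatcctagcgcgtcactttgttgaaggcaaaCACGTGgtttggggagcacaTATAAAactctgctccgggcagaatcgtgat
Ltbp1 (chr17:75005279-75005528, plus strand): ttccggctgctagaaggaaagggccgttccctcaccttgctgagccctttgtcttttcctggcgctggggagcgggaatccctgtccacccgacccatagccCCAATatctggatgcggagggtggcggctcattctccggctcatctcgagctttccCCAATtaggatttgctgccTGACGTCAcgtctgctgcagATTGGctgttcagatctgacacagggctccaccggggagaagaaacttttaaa
Tgfbr2 (chr9:116175364-116175613, minus strand): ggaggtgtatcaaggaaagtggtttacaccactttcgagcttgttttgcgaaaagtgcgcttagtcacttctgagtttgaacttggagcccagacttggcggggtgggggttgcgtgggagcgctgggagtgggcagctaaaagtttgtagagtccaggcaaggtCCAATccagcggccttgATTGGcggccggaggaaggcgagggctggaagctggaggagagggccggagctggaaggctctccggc

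The motifs searched on both strands were AP-1 (TGANTCA), CRE (TGACGTCA), the SMAD palindrome (GTCTAGAC), EGR (GCGTGGGCG), the NF-Y box (CCAAT), the GC box (GGGGCGGGG), the TATA box (TATAAA), the E-box (CACGTG) and ETS (CCGGAAG). No matches overlapped. The Tgfb1 window, with a GC content of 75.2%, held an EGR match 122 bases before the start and a GC box 69 bases before it. Tgfb2, at 53.6% GC, held a TATA box 31 bases before the start, an E-box at 51 and an NF-Y box at 130. The Ltbp1 window held a CRE 73 bases before the start between NF-Y boxes, and that of Tgfbr2 held NF-Y boxes 68 and 85 bases before it. Among 32851 windows of the same length, 0.536% held the EGR letters, 10.4% the GC box, 12.4% the TATA box, 6.02% the E-box, 1.55% the CRE and 33.8% the NF-Y box. The median GC content of those windows was 52.4%, below that of the Tgfb1 window, and these shares are not matched for GC content. AP-1 letters, present in 6.75% of all windows, SMAD letters, in 0.167%, and ETS letters, in 6.91%, were in none of the members' windows. These matches describe letters and do not show binding.

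The levels of the 10 genes in control cells spanned a wide range when divided by length (CPM per kb of merged exons in GENCODE M21, mean ± SD, n = 2). Tgfbi was highest at 69.3 ± 0.291, followed by Tgfbr2 at 55.0 ± 1.18, Ltbp3 at 39.8 ± 1.80, Tgfb3 at 28.4 ± 0.570 and Tgfb2 at 20.6 ± 0.422 CPM per kb. Ltbp2 at 14.0 ± 1.24 and Ltbp1 at 13.9 ± 0.719 CPM per kb did not differ beyond their spread. Tgfbr3 followed at 7.39 ± 0.108, Tgfb1 at 5.72 ± 0.0552 and Tgfbr1, the type I receptor, at 2.91 ± 0.280 CPM per kb. Other neighbours in that order were separated by more than their SDs. The length decides part of the order: with the longest annotated transcript as the length, Ltbp3 (63.0) stood above Tgfbr2 (55.6), Ltbp1 (22.3) above Ltbp2 (16.9), and Tgfb1 (11.2) above Tgfbr3 (7.94 CPM per kb). Comparisons of one gene between groups do not depend on its length.

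The first question was what EGFR activation by TGF-alpha did to these genes. With TGF-alpha, the binding protein genes Ltbp1, Ltbp2 and Ltbp3 rose, the ligand gene Tgfb1 and the co-receptor gene Tgfbr3 rose, and Tgfb2, Tgfb3 and Tgfbr2 fell. Thus 5 of 10 genes rose and 3 fell at an adjusted p under 0.05, while Tgfbr1 and Tgfbi did not pass. Over all tested genes 29.9% were called, 15.9% higher and 14.0% lower, and without TMM scaling 65.4% rather than 53.2% of the called genes were higher. At least a 2-fold change was called in 3 of the 10, Tgfb1, Ltbp1 and Ltbp2, and in 7.07% of tested genes. The median log2 fold change was 0.36 over the 10 genes and 0.0039 over all tested genes. In every one of the 10 genes the 2 TGF-alpha libraries lay wholly above or wholly below the 2 controls, which held for 64.1% of tested genes. Fewer cells of a type and less RNA per cell cannot be told apart in such bulk samples. Adjusted p-values are from edgeR's quasi-likelihood test with Benjamini-Hochberg adjustment over all 15362 genes, and errors of log2 fold changes are SEs.

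**Figure D1:**
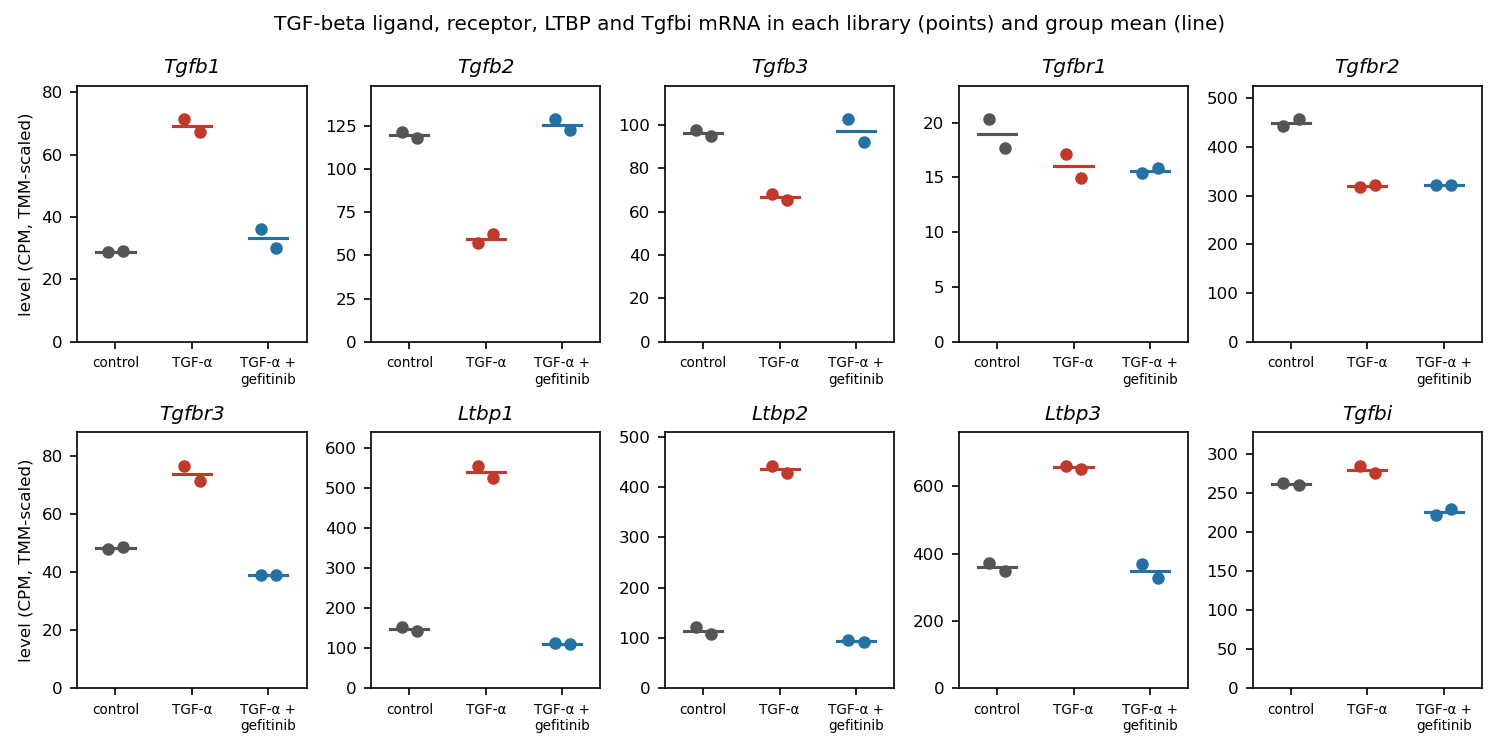
Level of each gene in every library, in TMM-scaled CPM on axes that start at 0, with points for the 2 libraries of each group and a line at their mean. The TGF-alpha points stand apart from both other groups in Tgfb1, Tgfb2, Tgfb3, Tgfbr3, Ltbp1, Ltbp2 and Ltbp3, and by a smaller margin in Tgfbi. In Tgfbr2 both treated groups lie near 320.6 to 322 CPM, below the control mean of 449.9.

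Tgfb1, the ligand gene with the lowest level per kb in control, lies on chromosome 7 at 25687002 to 25705077 (plus strand; this and the other gene positions are GENCODE M21 on GRCm38). It was at 28.6 and 29.0 CPM in control, 71.3 and 67.3 with TGF-alpha, and 36.3 and 30.2 with TGF-alpha plus gefitinib. Both TGF-alpha libraries were above all others. It rose 2.40-fold with TGF-alpha (log2 1.26 ± 0.09, adjusted p = 5.39e-08) and fell 2.08-fold when gefitinib was added (log2 -1.05 ± 0.09, adjusted p = 3.2e-07). The levels with TGF-alpha plus gefitinib did not overlap those in control, but the difference did not pass the test (log2 0.21 ± 0.09, adjusted p = 0.198).

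Tgfb2 (chromosome 1, 186622792 to 186705989, minus strand) had the opposite course. It was at 121 and 118 CPM in control, 57.2 and 62.3 with TGF-alpha, and 129 and 122 with gefitinib added. Only the TGF-alpha libraries were low. It fell 2.00-fold with TGF-alpha (log2 -0.998 ± 0.06, adjusted p = 1.58e-08) and rose 2.10-fold with gefitinib against TGF-alpha (log2 1.07 ± 0.06, adjusted p = 6.8e-09). Against control the difference was 0.07 ± 0.06 on the log2 scale (adjusted p = 0.516, 95% interval -0.05 to 0.20).

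Tgfb3 (chromosome 12, 86056745 to 86079041, minus strand) followed Tgfb2 in direction, with a smaller change. Its levels were 97.5 and 94.8 CPM in control, 68.2 and 65.3 with TGF-alpha, and 103 and 92.0 with gefitinib added, so that control and TGF-alpha plus gefitinib overlapped. It fell 1.44-fold with TGF-alpha (log2 -0.53 ± 0.07, adjusted p = 2.43e-05) and rose 1.46-fold with gefitinib (log2 0.54 ± 0.07, adjusted p = 1.59e-05). The 95% interval of its difference between TGF-alpha plus gefitinib and control was -0.12 to 0.16.

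These opposite changes altered the makeup of the ligand mRNA. Per kb, Tgfb1 made up 10.3% and 10.6% of the summed ligand level in control, 32.0% and 30.8% with TGF-alpha, and 12.1% and 11.0% with gefitinib added. Tgfb2 made up 37.7% and 37.6% in control, 22.3% and 24.8% with TGF-alpha and 37.2% and 38.9% with gefitinib. Tgfb3 held 52.0% and 51.8%, 45.6% and 44.5%, and 50.8% and 50.1% in the same order. The summed ligand level was 54.8 ± 0.937 CPM per kb in control, 43.8 ± 0.546 with TGF-alpha and 57.0 ± 3.81 with gefitinib added. With the longest transcript as the length the Tgfb1 share was 17.8% ± 0.438 in control and 46.2% ± 1.09 with TGF-alpha, which then made it the largest of the 3 in that group rather than Tgfb3. No p is given for shares and sums, since exact permutation of 2 against 2 libraries, two-sided, gives 0.33 at the least.

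**Figure D2:**
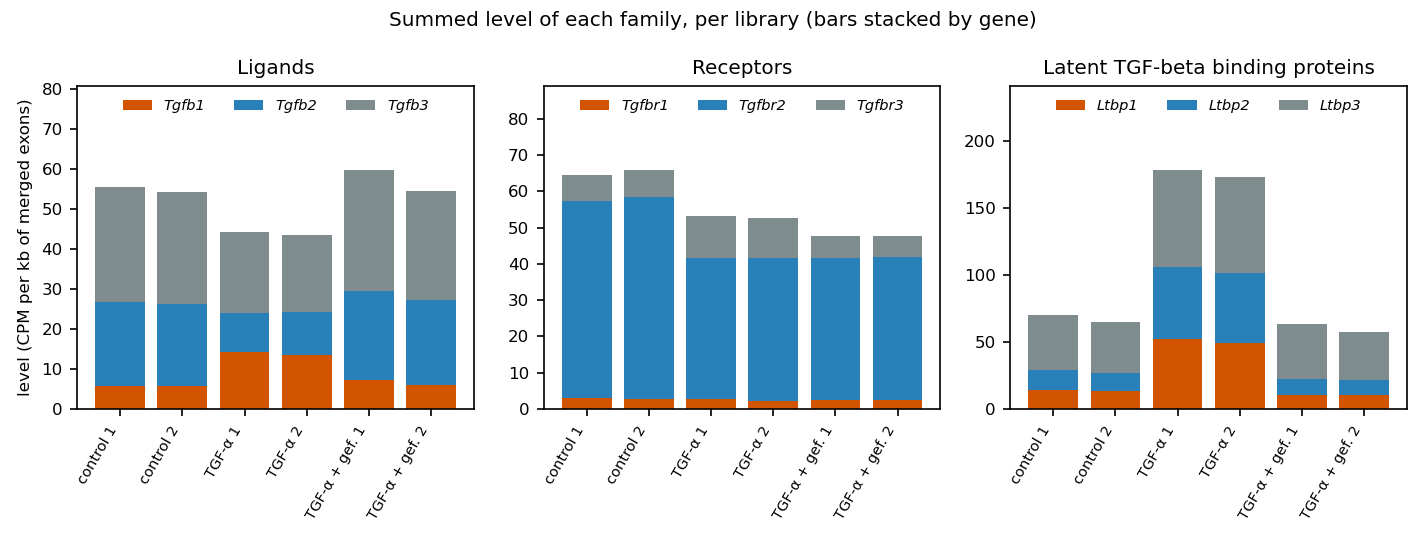
Summed level in each library of the ligand genes, the receptor genes and the binding protein genes Ltbp1, Ltbp2 and Ltbp3. Levels are in CPM per kb of merged exons, with bars stacked by gene and starting at 0. The Tgfb1 part of the ligand bars is tallest in the TGF-alpha libraries, and the binding protein bars reach 178.9 and 173.3 CPM per kb there against 57.8 to 70.3 in the others.

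As a description of pattern, the genes most like each ligand gene over the 6 libraries were found by Pearson's r of log2(CPM + 1), among the 11266 genes whose mean reached 5 CPM. They were Aldh2, Smim3 and Camkk2 for Tgfb1 (r from 0.996 to 0.998), Crim1, Slc24a3 and Pcolce2 for Tgfb2 (0.998 to 0.999), and Pomgnt1, Klf2 and Arfgef2 for Tgfb3 (0.995 to 0.997). The 6 points fall into the 3 treatment groups.

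Among the receptors, the type II receptor gene Tgfbr2 (chromosome 9, 116084293 to 116175360, minus strand) had the highest level per kb. It was at 443 and 457 CPM in control, 318 and 323 with TGF-alpha, and 322 and 322 with TGF-alpha plus gefitinib. Both treated groups were low, and they overlapped with each other. Tgfbr2 fell 1.40-fold with TGF-alpha (log2 -0.49 ± 0.04, adjusted p = 7.8e-07) and was also 1.40-fold lower than control with TGF-alpha plus gefitinib (log2 -0.48 ± 0.04, adjusted p = 9.16e-06). Between the treated groups the difference was 0.01 ± 0.04 on the log2 scale (adjusted p = 0.928), with a 95% interval of -0.09 to 0.10. Among the 8 genes that changed with TGF-alpha, Tgfbr2 was the one that did not also pass the test between TGF-alpha plus gefitinib and TGF-alpha.

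Tgfbr1 (chromosome 4, 47353222 to 47414931, plus strand) was sparsely counted, with 198 to 278 counts per library. It was at 20.3 and 17.7 CPM in control, 17.1 and 14.9 with TGF-alpha, and 15.4 and 15.8 with gefitinib added. Both treated groups lay below control, but neither difference passed (adjusted p = 0.153 and 0.181), and the 95% interval for TGF-alpha against control ran from -0.50 to 0.02 on the log2 scale. A fall of the size seen in Tgfbr2 lies within that interval.

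Tgfbr3 (chromosome 5, 107106570 to 107289629, minus strand) encodes betaglycan, a co-receptor that presents ligand, TGF-beta2 above all, to the signalling receptors. It was at 47.8 and 48.8 CPM in control, 76.7 and 71.3 with TGF-alpha, and 39.0 and 39.2 with gefitinib added, with no overlap between any of the groups. It rose 1.53-fold with TGF-alpha (log2 0.61 ± 0.07, adjusted p = 7.32e-06), and fell 1.89-fold with gefitinib (log2 -0.92 ± 0.07, adjusted p = 1.22e-07). Per kb, Tgfbr3 made up 11.3% of the summed receptor level in both control libraries, 22.0% and 20.7% with TGF-alpha and 12.5% in both libraries with gefitinib. Tgfbr2 made up 84.2% ± 0.507, 74.0% ± 1.32 and 82.5% ± 0.0911 of that sum in control, TGF-alpha and TGF-alpha plus gefitinib.

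Ltbp1 and Ltbp2, whose products are latent TGF-beta binding proteins, had the largest fold changes of the 10 genes with TGF-alpha. Ltbp1 (chromosome 17, 75005568 to 75392512, plus strand) was at 154 and 143 CPM in control, 556 and 525 with TGF-alpha, and 113 and 110 with TGF-alpha plus gefitinib. The TGF-alpha libraries were high and those with gefitinib were below control. It rose 3.64-fold with TGF-alpha (log2 1.86 ± 0.05, adjusted p = 3.14e-12) and fell 4.85-fold with gefitinib (log2 -2.28 ± 0.06, adjusted p = 6.56e-13).

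Ltbp2 (chromosome 12, 84783212 to 84876532, minus strand) differs from the other binding proteins in that its product is known to bind the matrix without binding latent TGF-beta. It was at 122 and 107 CPM in control, 442 and 429 with TGF-alpha, and 96.9 and 92.5 with gefitinib added. Again the TGF-alpha libraries were high and no groups overlapped. It rose 3.80-fold (log2 1.93 ± 0.06, adjusted p = 7.49e-12) and fell 4.59-fold (log2 -2.20 ± 0.06, adjusted p = 3.42e-12). An antisense gene, D030025P21Rik, shares 9.34% of the exon bases of Ltbp2 and had 1 to 23 counts per library, against 1157 to 6127 for Ltbp2. Whether counting used strand is not given in the sources used here.

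Ltbp3 (chromosome 19, 5740904 to 5758532, plus strand) had the highest level per kb of the binding protein genes in control. It was at 372 and 349 CPM in control, 661 and 652 with TGF-alpha, and 370 and 329 with gefitinib added, where the last group overlapped with control. It rose 1.82-fold (log2 0.86 ± 0.06, adjusted p = 2.05e-08) and fell 1.88-fold (log2 -0.91 ± 0.06, adjusted p = 1.11e-08). The summed level of Ltbp1, Ltbp2 and Ltbp3 was 67.7 ± 3.76 CPM per kb in control, 176 ± 3.91 with TGF-alpha and 60.5 ± 3.83 with gefitinib. Within that sum Ltbp3 went from 58.8% ± 0.601 in control to 41.1% ± 0.498 with TGF-alpha and 63.6% ± 1.27 with gefitinib. Ltbp4, a gene of the same family, is outside this sum. It was at 61.6 and 58.5 CPM in control, 59.2 and 66.5 with TGF-alpha, and 52.9 and 50.3 with gefitinib added. Its difference between TGF-alpha and control did not pass (log2 0.07 ± 0.07, adjusted p = 0.548).

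Tgfbi (chromosome 13, 56609523 to 56639562, plus strand) encodes a secreted matrix protein that TGF-beta is known to induce. It was at 262 and 260 CPM in control, 284 and 275 with TGF-alpha, and 222 and 230 with gefitinib added, with no overlap between groups. The difference between TGF-alpha and control did not pass (log2 0.10 ± 0.05, adjusted p = 0.14), although without TMM scaling it did (log2 0.16, adjusted p = 0.0159). It fell 1.24-fold with gefitinib against TGF-alpha (log2 -0.31 ± 0.05, adjusted p = 0.000147).

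**Figure D3:**
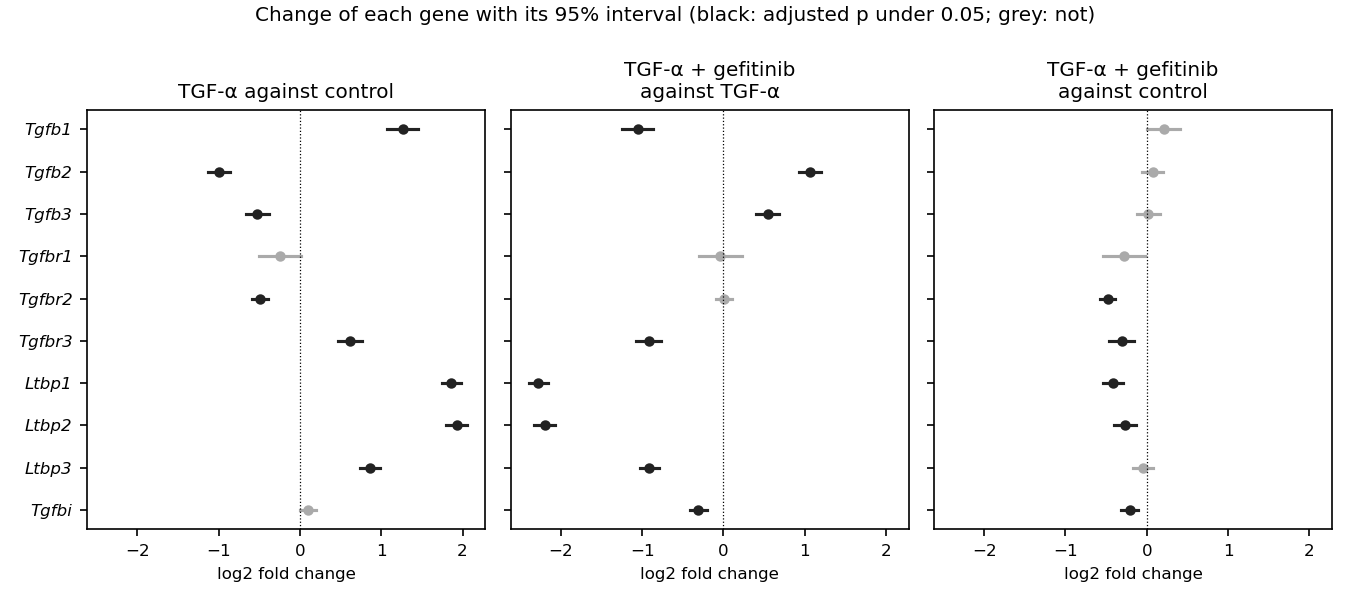
Log2 fold change of each gene with its 95% interval in the 3 comparisons, in black where the adjusted p was under 0.05 and in grey where it was not. Ltbp1 and Ltbp2 lie farthest from 0 in the first 2 panels, and in the panel of TGF-alpha plus gefitinib against control the largest distance from 0 is the 0.48 of Tgfbr2.

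Adding gefitinib to TGF-alpha addressed what the EGFR kinase inhibitor changed in ligand-treated cells. Tgfb2 and Tgfb3 rose and 6 of the 10 genes fell, namely Tgfb1, Tgfbr3, Ltbp1, Ltbp2, Ltbp3 and Tgfbi, while Tgfbr1 and Tgfbr2 did not pass. Over all tested genes 34.0% were called, 17.0% higher and 16.9% lower. At least a 2-fold change was called in 4 of the 10, the same 3 and Tgfb2, and in 7.88% of tested genes. The median log2 fold change was -0.61 over the 10 genes and 0.013 over all tested genes. In 8 of the 10 genes the groups did not overlap, as in 65.8% of tested genes. This comparison and the one of TGF-alpha against control share the TGF-alpha libraries, so that opposite signs in the 2 are not independent of each other.

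What still differed from control when ligand and inhibitor were both present was smaller. Of the 10 genes 5 were lower than control and 0 higher: Tgfbr2 and Ltbp1 (log2 -0.42 ± 0.06, adjusted p = 0.000255), Tgfbr3 (log2 -0.31 ± 0.07, adjusted p = 0.0153), Ltbp2 (log2 -0.27 ± 0.06, adjusted p = 0.0136) and Tgfbi (log2 -0.21 ± 0.05, adjusted p = 0.0122). Over all tested genes 9.52% were called, 5.27% higher and 4.26% lower, and without TMM scaling 77.5% rather than 55.3% of the called genes were higher. Before adjustment 1 of the 10, Tgfb1, was higher at the 0.05 level of edgeR's test, and DESeq2 called 0 of the 10 higher and 4 lower. At least a 2-fold change was called in 0 of the 10, and in 0.690% of tested genes. The groups did not overlap in 8 of the 10 genes, as in 52.1% of tested genes. Tgfbr2 and Ltbp1 passed under all 13 alternatives. Calls of the other 3 were lost under some alternatives, while their log2 fold changes stayed below 0, between -0.33 and -0.24 for Tgfbr3, -0.36 and -0.18 for Ltbp2, and -0.23 and -0.14 for Tgfbi. Tgfbr3 no longer passed when control 1 (adjusted p = 0.0736), control 2 (0.114), TGF-alpha plus gefitinib 1 (0.0559) or TGF-alpha plus gefitinib 2 (0.063) was left out, nor with DESeq2 (0.0538). Ltbp2 did not pass with control 1 (0.179) or TGF-alpha plus gefitinib 2 (0.081) left out. Tgfbi did not pass with control 1 (0.0877), control 2 (0.0825) or TGF-alpha plus gefitinib 1 (0.0575) left out, nor without TMM scaling (0.0667).

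The other genes of the pathway were taken from 5 lists by role. Their counts are to be read beside the shares over all tested genes, which were 15.9% higher and 14.0% lower with TGF-alpha, 17.0% and 16.9% with gefitinib against TGF-alpha, and 5.27% and 4.26% with both agents against control. The first holds 12 genes of latent complexes, matrix storage and ligand-binding proteoglycans, of which 11 were tested. With TGF-alpha 3 rose and 3 fell, with a median log2 fold change of -0.10, and with upper-quartile scaling 5 fell. Lrrc32, whose product GARP anchors latent TGF-beta at the cell surface, was at 73.1 and 75.0 CPM in control, 160.2 and 148 with TGF-alpha, and 96.8 and 84.5 with gefitinib added, and rose 2.08-fold with TGF-alpha (adjusted p = 2.33e-08). Fn1, the fibronectin gene, rose 1.54-fold (adjusted p = 2.05e-08). Fmod and Aspn, which encode the small proteoglycans fibromodulin and asporin that bind TGF-beta, fell 2.62- and 1.81-fold (adjusted p = 9.06e-12 and 3.64e-06). With gefitinib against TGF-alpha 7 fell and 2 rose, the latter being Fmod (2.56-fold) and Aspn (1.27-fold). The falls were 4 without TGF-alpha 2, and the rises 1 without TGF-alpha 1 or TGF-alpha plus gefitinib 2.

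The fibrillins, whose microfibrils hold latent complexes in the matrix, were among the genes lower than control with both agents. Fbn2 was at 542 and 541 CPM in control, 491 and 454 with TGF-alpha and 401 and 370.1 with gefitinib added (1.40-fold lower than control, adjusted p = 3.33e-05). Fbn1 was 1.19-fold lower than control there (adjusted p = 0.00356). In that comparison 4 genes of the list were lower than control and 1 higher. The lower ones were 2 without control 1, and the higher one, Lrrc32, was lost without control 1, control 2 or TGF-alpha plus gefitinib 1.

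Genes whose products process or activate the latent ligand made up the second list, with 11 of 13 tested. With TGF-alpha 7 rose and 3 fell, with a median log2 fold change of 0.27. Plat, a plasminogen activator gene, rose 3.16-fold, from 20.4 and 19.4 CPM to 64.3 and 61.3 (adjusted p = 2.1e-09). Itgav, the alpha chain of the integrins that release TGF-beta from its propeptide, rose 1.55-fold (adjusted p = 3.11e-06). Thbs1, which encodes the TGF-beta activator thrombospondin-1, fell 1.83-fold (log2 -0.87 ± 0.05, adjusted p = 6.39e-09), and Mmp2, a gelatinase gene, fell 1.29-fold (adjusted p = 1.45e-05).

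With gefitinib against TGF-alpha 7 genes of that list fell and 2 rose. Plat fell 3.97-fold and Itgav 1.68-fold, and Mmp2 rose 1.34-fold and Mmp14, a membrane-bound metalloproteinase gene, 1.40-fold. Thbs1 was at 25499.7 and 23783 CPM in control, 14194 and 12728 with TGF-alpha, and 14607.5 and 14508 with gefitinib added, so that both treated groups were low. Its difference with gefitinib against TGF-alpha was 0.11 ± 0.05 on the log2 scale (adjusted p = 0.102), and it was 1.69-fold below control with both agents (adjusted p = 4.37e-07). Mmp14 was 1.36-fold above control with both agents (adjusted p = 1.57e-05). Thbs1 and Mmp14 were the 2 of the 11 called against control in that comparison. With RLE or upper-quartile scaling 2 rather than 1 were lower.

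Among co-receptors and receptor partners 10 of 11 were tested. With TGF-alpha 3 rose and 4 fell. Vasn and Cd109, whose products are known to bind TGF-beta and to limit its signalling, rose 1.92- and 1.82-fold (adjusted p = 2.97e-09 and 2.05e-08), from 128 and 122 CPM to 239 and 243 for Vasn and from 129.8 and 119 to 224 and 229 for Cd109. Eng, the co-receptor endoglin, fell 1.22-fold (adjusted p = 0.00314) and Scube3, a secreted receptor ligand gene, 1.62-fold (adjusted p = 7.99e-05). The receptor modulator gene Bambi and Tgfbrap1 fell 1.38- and 1.25-fold (adjusted p = 0.0217 and 0.0128). The falls were 2 without TGF-alpha 1, and 2 with DESeq2. With gefitinib against TGF-alpha 4 rose and 3 fell. Vasn fell 1.93-fold and Cd109 1.62-fold, and Eng rose 1.49-fold. Eng was also 1.22-fold above control (adjusted p = 0.00995), the 1 call of this list against control, which was lost without control 1 or TGF-alpha plus gefitinib 1. Without TMM scaling 2 were higher.

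The SMAD list holds the signal carriers and their inhibitors. All 14 genes were tested, and with TGF-alpha 3 rose and 3 fell, with a median log2 fold change of 0.05, beside 15.9% higher and 14.0% lower over all tested genes. Smad3, 1 of the carriers of the TGF-beta signal, fell 1.28-fold, from 146 CPM in both controls to 111 and 117 (adjusted p = 0.000145). Smad2 and Smad4 of the same list did not pass (log2 0.10 and 0.01, adjusted p = 0.412 and 0.893). The inhibitor genes Smurf2 and Skil rose 1.30- and 1.45-fold (adjusted p = 0.000957 and 0.00656), and Tgif1 rose 1.28-fold (adjusted p = 0.00737). The falls were 1 without TGF-alpha 1, and the rises 1 with DESeq2. Without TMM scaling 5 rose and 1 fell. With gefitinib against TGF-alpha 2 rose and 4 fell. The inhibitory Smad7 was at 8.35 and 6.75 CPM in control, 11.4 and 9.67 with TGF-alpha, and 6.78 and 4.56 with gefitinib added, and fell 1.84-fold in that comparison (adjusted p = 0.00436). The rises were 1 without any 1 of the libraries other than TGF-alpha 2, and also with DESeq2, with no filter or with the compared groups alone, and the falls 2 without TGF-alpha 1. Against control only Smad3 was called with both agents (log2 -0.19 ± 0.05, adjusted p = 0.0358), and that call was lost without any 1 of the libraries other than TGF-alpha 1, with DESeq2 and without TMM scaling. Without TGF-alpha plus gefitinib 2, 1 gene of the list was higher.

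Genes known to be induced by TGF-beta formed the last list, with 19 of 22 tested. With TGF-alpha 12 rose and 4 fell, with a median log2 fold change of 0.24, beside 15.9% higher and 14.0% lower and a median of 0.0039 over all tested genes. Timp1, a metalloproteinase inhibitor gene, rose 3.67-fold (adjusted p = 2.02e-12) and the transcriptional repressor gene Bhlhe40 2.84-fold (adjusted p = 3.64e-10). Acta2, the smooth muscle actin gene, fell 3.40-fold, from 546 and 487 CPM to 155 and 148 (adjusted p = 2.41e-11), and Col1a1 fell 2.20-fold. Junb and Timp1 are also known targets of ERK and AP-1 signalling.

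With gefitinib against TGF-alpha 15 genes of that list fell and 3 rose. Prg4, the lubricin gene, was at 19.4 and 20.4 CPM in control, 101 and 80.2 with TGF-alpha, and 17.5 and 16.1 with gefitinib added, and fell 5.38-fold (adjusted p = 4.29e-10). Timp1 fell 3.30-fold, whereas Acta2 rose 2.99-fold. With both agents 7 of the 19 were lower than control and 2 higher. Postn, which encodes periostin, was at 104 CPM in both controls, 71.2 and 80.7 with TGF-alpha and 59.8 and 60.5 with gefitinib added (1.73-fold below control, adjusted p = 5.18e-06). Col3a1 was 1.41-fold below control (adjusted p = 5.05e-05), and Bhlhe40 was 1.63-fold above it (adjusted p = 1.61e-05). The lower genes were 4 without control 1 or control 2. Without TMM scaling 4 genes were lower and 4 higher.

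**Figure D4:**
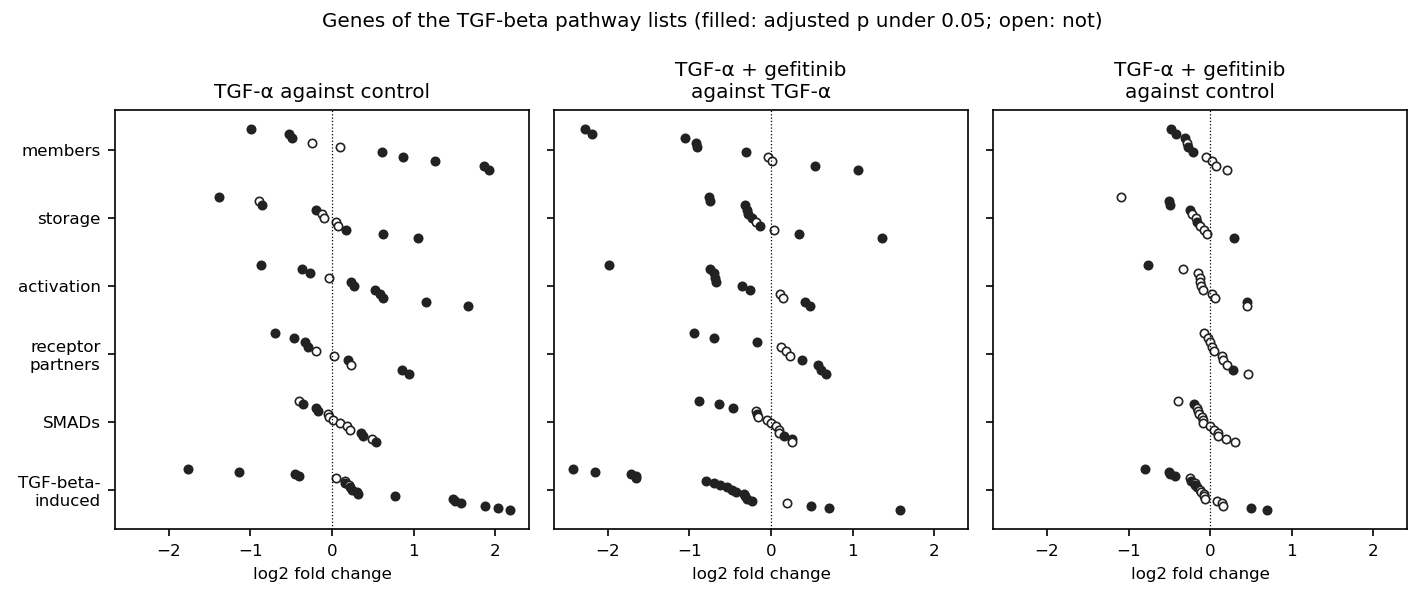
Log2 fold change of every tested gene of the 10 members and the 5 pathway lists in the 3 comparisons, filled where the adjusted p was under 0.05 and open where it was not. The panel of TGF-alpha plus gefitinib against control is narrower than the other panels, and in the first panel every list has called genes on both sides of 0.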

How the data were processed

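RNA of 6 libraries was sequenced on an Ion Proton system, per the labels' protocols. The table the authors deposited holds raw counts, a whole number for each gene and library. Per the submitters' processing notes, reads were placed on GRCm38. For the aligner, counting tool, annotation and strand setting, the sources used here name nothing. Samples were grouped by their titles.

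The counts went into edgeR 4.0.16 (R 4.3.3), with filterByExpr (minimum count 10) as the filter and TMM as the scaling. A quasi-likelihood model (glmQLFit, glmQLFTest) with group as its term was fitted to all 6 libraries, with 3 residual and 11.2 prior degrees of freedom. The common dispersion gave a coefficient of variation of 6.08% between libraries. Benjamini-Hochberg adjustment covered all 15362 tested genes, with 0.05 as the limit for a call. Alternatives were RLE, upper-quartile or no scaling, no filter, DESeq2 1.42.0, the compared groups alone, the replicate number as a block, and leaving out each library.

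The members, the lists and the tests were chosen with earlier results of these data known. The text names all 10 members, and from each list up to 4 called genes with the smallest p per comparison, or the 2 most abundant where none was called. Only some of these are printed. Junb, Ltbp4, Smad2, Smad4, Bambi, Tgfbrap1, D030025P21Rik, the genes most like each ligand gene and the cell type markers are named in addition to them. Positions and lengths are from GENCODE M21 and promoters from RefSeq.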

Additional observations from a re-analysis of the deposited data

How the results depend on the processing

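No alternative changed the direction of a called member. For TGF-alpha against control and TGF-alpha plus gefitinib against TGF-alpha, 8 members were called under every alternative, except 9 in the first comparison without TMM scaling. For TGF-alpha plus gefitinib against control the 5 calls became 2 to 5 when a library was left out, and the 1463 genes called became 649 to 1291. DESeq2 called 3114 rather than 4600 genes with TGF-alpha against control. It called 3474 rather than 5217 with gefitinib against TGF-alpha, and 905 rather than 1463 with TGF-alpha plus gefitinib against control. The replicate numbers did not pair the samples: deviations from the group means correlated at 0.015, -0.0399 and -0.0189 between groups. With the replicate number as a block, 4450, 5042 and 1335 genes were called in the 3 comparisons, and 8, 8 and 5 members. Of 390 counts of called list genes under alternatives, 350 stayed within 1.5 times the main count and 40 did not. With 2 libraries a group and 198 to 278 counts, the precision for Tgfbr1 is limited.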

Other observations

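Among the markers of blood cells and macrophages, some genes changed while others of the same list had few or no counts. These genes are described after their values were seen. Itga2b, the platelet integrin alpha chain gene, rose from 4.23 ± 0.309 CPM in control to 12.4 ± 1.31 with TGF-alpha (mean ± SD, n = 2; edgeR adjusted p = 1.34e-05), and was at 3.88 ± 0.162 with gefitinib added, whereas the platelet genes Gp9 and Pf4 had 0 and at most 3 counts in any library. All 3 tested macrophage markers changed with TGF-alpha, not in 1 direction, beside 29.9% of all tested genes called. Cd68, a lysosomal protein gene, rose from 1.54 ± 0.523 to 8.98 ± 1.08 CPM (edgeR adjusted p = 5.86e-06), and Cd14, a lipopolysaccharide co-receptor gene, from 1.13 ± 0.0624 to 3.84 ± 0.739 CPM (edgeR adjusted p = 0.00119). Lyz2, a lysozyme gene, fell from 2.31 ± 0.481 to 0.762 ± 0.670 CPM (edgeR adjusted p = 0.0218). Ptprc, C1qa, C1qb and Tyrobp had no counts in any library.

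Of the 7 tested fibroblast markers 4 rose with TGF-alpha, beside 15.9% higher and 14.0% lower over all tested genes. Pdgfra, a receptor gene of mesenchymal cells, rose from 174 ± 2.32 to 327 ± 1.99 CPM (edgeR adjusted p = 3.46e-09), Lum, the lumican gene, 1.39-fold (edgeR adjusted p = 1.1e-05), Twist1 1.29-fold (edgeR adjusted p = 0.00387) and Cd34 1.59-fold (edgeR adjusted p = 0.00151). Dpt, the dermatopontin gene, fell from 17.0 ± 1.20 to 4.81 ± 0.228 CPM (edgeR adjusted p = 4.11e-07) and the collagen gene Col5a1 fell 1.89-fold (edgeR adjusted p = 2.09e-09), while Thy1 did not pass (edgeR adjusted p = 0.934).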
